A study of Mus musculus with 8 samples.

Results

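Sox7, Sox17 and Sox18 are the mouse genes of SOX group F, transcription factors of blood vessel lining and of endoderm. They were chosen by name, as the members of this group, with no value used in the rule, though earlier results of these data were known, and are 3 of the 24421 genes measured. SOX proteins bind DNA through an HMG box, which bends the helix, and those of group F also carry a C-terminal stretch that activates transcription. In endothelium the group F factors act in part interchangeably, in artery formation and, for SOX18, in the start of the lymphatic vessels. SOX17 is needed for definitive endoderm, while SOX7 and SOX17 are also made in the extraembryonic endoderm, where they act on basement membrane genes.

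Messenger RNA was sequenced from mouse embryonic stem cells (mESCs) of the WT line W9.5 and of the Hira-null line Clone104, in both of which histone H3.3 carries an HA tag. HIRA is the chaperone that places H3.3 into chromatin outside DNA replication. Each line was taken undifferentiated at day 0 and as beating cultures at day 15, after aggregation in hanging drops and without selection of a cell type. There were 2 biological samples in each of 4 groups, 8 libraries in all, and the Hira-null arm is a single clone, so that the genotype and the clone cannot be told apart. Values are FPKM, fragment counts scaled by transcript length and library size, and 6896889 to 11088389 fragments per library were recovered from the deposited values.

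Hira itself stood at 27.3 and 28.5 FPKM in the WT libraries at day 0 and at 12.4 and 11.4 FPKM in the Hira-null libraries, a log2 fold change of -1.17 (limma, adjusted p 8.48e-05). In the day 15 cultures it stood at 15.8 and 15.5 FPKM in WT and at 16.7 and 19.8 FPKM in the libraries labelled Hira-null, a log2 fold change of 0.20 that did not pass the test (adjusted p 0.167). The level of Hira therefore goes with the labels at day 0 and not at day 15, and which part of the gene the null allele lacks was not used here. Hira also shares exons with the annotated gene Gm15797. Markers of heart muscle summed to 148 to 149 FPKM in WT at day 15 and to 129 FPKM in both libraries labelled Hira-null, against 4.79 to 7.77 FPKM at day 0. The sums hide opposite members, with Actc1, Myh6 and Myh7 lower at day 15 (log2 -0.84, -0.55 and -0.79) and Nppa higher (1.97). Tnnt2 stood at 39.9 FPKM in WT and at 58.8 FPKM in the libraries labelled Hira-null at day 15. Its log2 fold change of 0.55 did not pass at that day (limma, adjusted p 0.0838). Of 12 heart muscle genes, 2 were higher and 4 lower there in the libraries labelled Hira-null, against 18.6% and 18.8% of all genes. Among the 4 lower, Myl7 differed most, at 66.9 FPKM in WT and 12.1 FPKM there (log2 -2.37, limma, adjusted p 7.68e-06). In such mixed cultures fewer cells of a type and less RNA per cell cannot be told apart.

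All 3 genes lie apart from other annotated genes in the NCBIM37 build (mm9). Sox7 is on the plus strand of chromosome 14, from 64562511 to 64569569, with 3298 bases of exon. Sox17 is on the minus strand of chromosome 1, from 4481009 to 4486494, with 3154 bases of exon, and Sox18 on the minus strand of chromosome 2, from 181404541 to 181406345, with 1620 bases. None shares an exon with, or overlaps, another gene of that annotation, so an overlap does not blur their fragment counts.

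At day 0 the Hira-null cells held little Sox7 and Sox17 RNA, while Sox18 was not told apart between the genotypes after adjustment. At day 15 all 3 genes were lower in the libraries labelled Hira-null. The genotype difference at day 0 passed the test (adjusted p of 0.05 or less, log2(FPKM + 1), limma) downwards for 2 of the 3, where 19.4% of the 14337 genes tested did so. At day 15 it passed downwards for 3 of the 3, against 18.8% of all genes tested.

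Sox7, the gene of group F best known from parietal endoderm and early endothelial progenitors, stood at 4.74 and 5.98 FPKM in the WT libraries at day 0, from 114 and 165 fragments. The Hira-null libraries at day 0 stood at 0.312 and 0.105 FPKM, from 7 and 3 fragments. The WT values lay far above the Hira-null values and the groups did not overlap. At day 15 the WT libraries stood at 3.61 and 2.77 FPKM, from 111 and 106 fragments, and those labelled Hira-null at 0.344 and 0.386 FPKM, from 10 and 12 fragments. Again every WT library was above every library labelled Hira-null.

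The group means of Sox7 were 5.36 ± 0.875 FPKM in WT and 0.208 ± 0.147 FPKM in Hira-null at day 0, and 3.19 ± 0.592 and 0.365 ± 0.030 FPKM at day 15 (SD, n = 2 each). On the log2(FPKM + 1) scale Sox7 was lower in Hira-null by a fold change of -2.39 ± 0.18 (SE) at day 0, with a 95% interval from -2.81 to -1.98 (limma, adjusted p 4.30e-05). Of the 14337 genes, 19 had a lower fold change. The difference at day 15 was -1.61 ± 0.19 (SE), with a 95% interval from -2.04 to -1.18 (adjusted p 3.48e-04). The added pseudocount of 1 draws such low levels together, so the ratio of the scaled fragments was larger: Sox7 was 27.6-fold lower at day 0 (exact 95% interval 14.8 to 58.3) and 8.60-fold lower at day 15 (5.54 to 14.0). These intervals cover counting error only.

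Sox17, the factor needed for definitive endoderm and also made in arterial endothelium, stood at 4.21 and 5.17 FPKM in WT at day 0, from 127 and 179 fragments. Of the Hira-null libraries at day 0, the first had no Sox17 fragment and the other had 5, or 0.139 FPKM. A count of 0 in the first allows up to 3 fragments, or 0.107 FPKM. At this depth both Hira-null libraries were therefore far below the WT libraries. At day 15 the WT libraries stood at 4.85 and 5.65 FPKM, from 187 and 271 fragments. Those labelled Hira-null stood at 0.822 and 1.36 FPKM, from 30 and 53 fragments, below WT but above the Hira-null libraries of day 0.

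The means of Sox17 were 4.69 ± 0.679 FPKM in WT and 0.0695 ± 0.0983 FPKM in Hira-null at day 0, and 5.25 ± 0.566 and 1.09 ± 0.380 FPKM at day 15 (SD, n = 2 each). The log2 fold change was -2.41 ± 0.19 (SE) at day 0, with a 95% interval from -2.83 to -1.99 (limma, adjusted p 4.54e-05), and 18 genes had a lower value. The day 15 value was -1.59 ± 0.19 (SE), with a 95% interval from -2.02 to -1.15 (adjusted p 4.04e-04). In scaled fragments Sox17 was 60.6-fold lower at day 0 (exact 95% interval 25.7 to 188) and 4.81-fold lower at day 15 (3.8 to 6.15). Sox7 and Sox17 thus had nearly equal fold changes at both days on the log2(FPKM + 1) scale. In scaled fragments they were further apart, at 27.6-fold for Sox7 against 60.6-fold at day 0 and 8.60-fold against 4.81-fold at day 15. The exact intervals of the genes overlapped at each day.

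Sox18, a factor of young vessels whose loss disturbs lymphatic growth, was the lowest of the 3 in WT cells at day 0, at 2.01 and 1.10 FPKM from 24 and 15 fragments. The Hira-null libraries at day 0 stood at 0.989 and 0.562 FPKM, from 11 and 8 fragments. The groups did not overlap, but the lower WT library lay close to the higher Hira-null library. At day 15 the WT libraries stood at 3.87 and 3.43 FPKM, from 59 and 65 fragments. In the libraries labelled Hira-null only 1 and 5 fragments were counted, or 0.0693 and 0.324 FPKM, far below WT.

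The means of Sox18 were 1.56 ± 0.649 FPKM in WT and 0.776 ± 0.302 FPKM in Hira-null at day 0, and 3.65 ± 0.313 and 0.197 ± 0.180 FPKM at day 15 (SD, n = 2 each). The log2 fold change at day 0 was -0.51 ± 0.22 (SE), with a 95% interval from -1.02 to -0.0039, and did not pass the test (limma, adjusted p 0.102). Without the second WT library of day 0 it was -0.77 and passed (adjusted p 0.0322). At day 15 the fold change was -1.96 ± 0.23 (SE), with a 95% interval from -2.49 to -1.44 (adjusted p 3.58e-04), and 88 genes had a lower value. In scaled fragments Sox18 was 18.02-fold lower at day 15 (exact 95% interval 8.05 to 50.04), and 2.03-fold lower at day 0 (1.15 to 3.72).

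**Figure D1:**
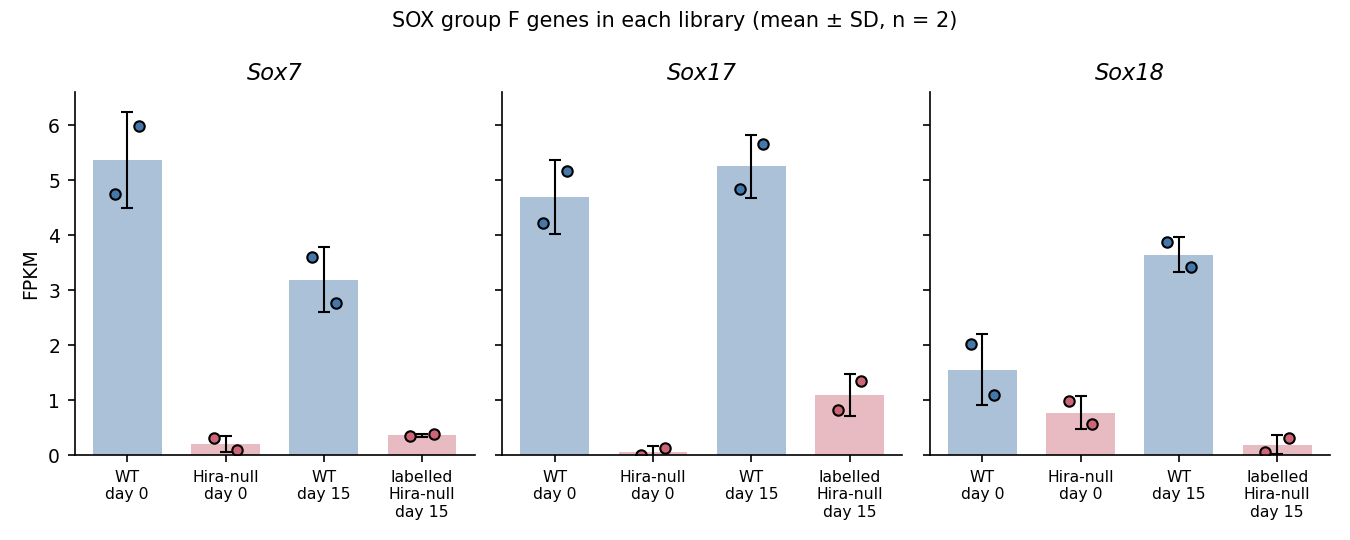
FPKM (vertical axis) of Sox7, Sox17 and Sox18 in the 4 groups; points are the 8 libraries, bars the group means and error bars the SD (n = 2). WT libraries sit between 1.10 and 5.98 FPKM, and those labelled Hira-null at day 15 between 0.0693 and 1.36 FPKM.

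The 3 genes differed in how their levels stood at day 15 against day 0, in each line. These comparisons reuse the libraries of the genotype comparisons. In WT, Sox7 fell by 0.60 ± 0.18 (SE) on the log2 scale (limma, adjusted p 0.0167), to 0.582 times its day 0 level in scaled fragments (exact 95% interval 0.485 to 0.697). Sox18 rose by 0.88 ± 0.23 (SE, adjusted p 0.00710), to 2.38 times its day 0 level (1.65 to 3.50). Sox17 had a log2 difference of 0.14 ± 0.19 (SE), with a 95% interval from -0.29 to 0.56, and did not pass (adjusted p 0.538). Of the 3 genes, 1 therefore passed in each direction, where 36.1% of all genes tested rose and 33.4% fell in WT.

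In the line labelled Hira-null, Sox17 rose by 0.96 ± 0.19 (SE) on the log2 scale between the days (limma, adjusted p 0.00144), which in scaled fragments was 14.1-fold (exact 95% interval 5.81 to 44.6). Its day 0 count there was only 5 fragments in all. Sox18 fell by 0.57 ± 0.23 (SE, adjusted p 0.0475), to 0.268 times its day 0 level (0.0877 to 0.699). Sox7 had a log2 difference of 0.18 ± 0.18 (SE), with a 95% interval from -0.24 to 0.60, and did not pass (adjusted p 0.397). Again 1 of the 3 passed in each direction, against 37.5% of all genes upwards and 36.4% downwards. The fall of Sox7 in WT was lost without the second WT library of day 0 (adjusted p 0.0931) or of day 15 (0.142). That of Sox18 in Hira-null was lost without the first Hira-null library of day 0 (adjusted p 0.238) or of day 15 (0.206), and its rise in WT without the first WT library of day 15 (0.0598). With every library scaled to the same sum, the falls of Sox7 in WT (-0.23, adjusted p 0.298) and of Sox18 in Hira-null (-0.42, 0.116) were lost and Sox17 passed upwards in WT (0.53, 0.0329).

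The genotype difference also changed size between the days, and in opposite directions. It was smaller at day 15 than at day 0 for Sox7, by 0.78 ± 0.26 (SE) on the log2 scale (limma, adjusted p 0.0457), and for Sox17, by 0.82 ± 0.27 (SE, adjusted p 0.0413). It was larger at day 15 for Sox18, with a difference of -1.45 ± 0.32 (SE, adjusted p 0.00908). A positive difference, as for Sox7 and Sox17, passed for 17.5% of all genes tested, and a negative one for 17.7%. For Sox7 and Sox17 this call was lost without most single libraries, 7 of 8 and 6 of 8 in turn, so its size is known only roughly. For Sox18 it was lost without the first WT library of day 15 (adjusted p 0.0511).

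**Figure D2:**
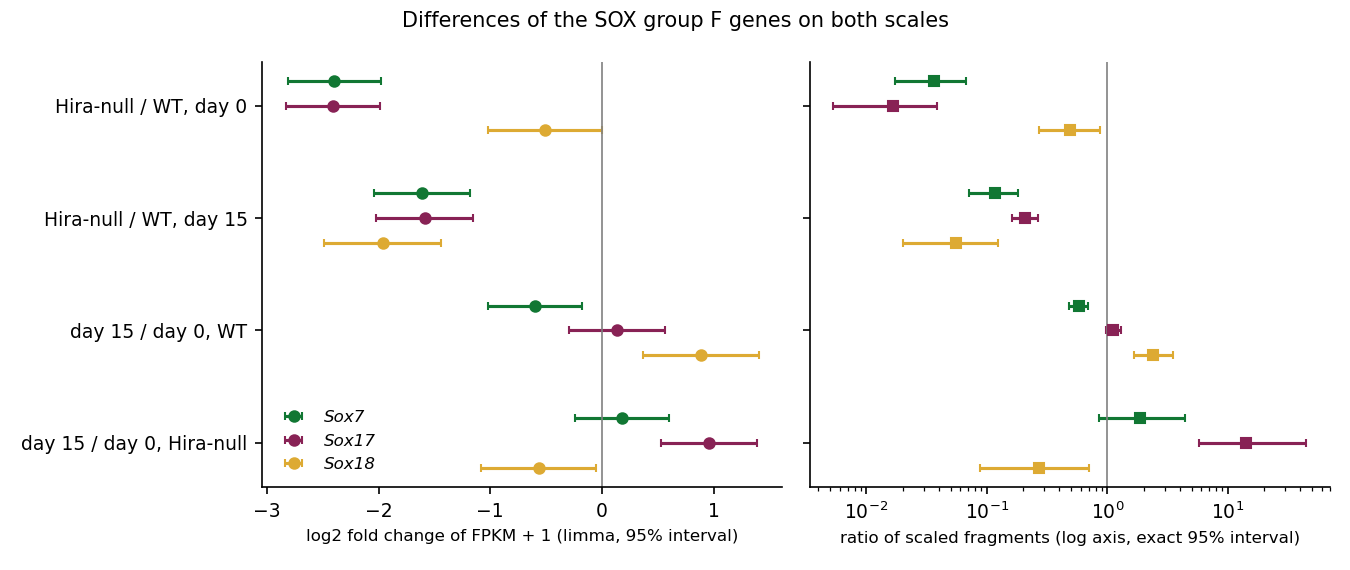
Differences of Sox7, Sox17 and Sox18 between genotypes at each day and between days in each genotype, left as log2 fold change of FPKM + 1 with its 95% interval and right as ratio of scaled fragments on a log axis with its exact 95% interval. At day 0 the Sox18 interval, from -1.02 to -0.0039, ends next to 0, while those of Sox7 and Sox17 lie below -1.98.

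Since FPKM is scaled by transcript length, the levels of the 3 genes can be set side by side. In WT at day 0 Sox7 and Sox17 overlapped and Sox18 was below both. In WT at day 15 Sox17 was the highest, and Sox18 and Sox7 overlapped. The sum of the 3 genes was 10.97 and 12.2 FPKM in WT at day 0 and 12.3 and 11.8 FPKM at day 15, so that these values overlapped although the make-up differed. The FPKM of all genes summed to 493808 and 481044 in WT at day 0 and 355477 and 347722 at day 15. A like sum of the 3 is therefore not a like share of all FPKM. Sox18 made up 18.4% and 8.95% of the sum of the 3 genes at day 0 and 31.4% and 28.9% at day 15.

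The summed level was 1.30 and 0.806 FPKM in Hira-null at day 0 and 1.24 and 2.07 FPKM in the libraries labelled Hira-null at day 15, below every WT library. The leading gene differed from that of WT at day 0 only, since Sox17 led at day 15 in both. At day 0 Sox18 held 76.0% and 69.8% of the Hira-null sum, and at day 15 it held 5.61% and 15.7%, where Sox17 held 66.6% and 65.7%. These shares rest on few fragments and are given without a test.

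By level, the groups of Sox7 ran from WT at day 0 through WT at day 15 to the libraries labelled Hira-null at day 15 and Hira-null at day 0, and the last pair did not differ past the test. Those of Sox17 ran from WT at day 15 and WT at day 0, which did not differ past the test, to the libraries labelled Hira-null at day 15 and Hira-null at day 0. Those of Sox18 ran from WT at day 15 to WT at day 0, Hira-null at day 0 and the libraries labelled Hira-null at day 15, with no call between the genotypes at day 0.

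Most SOX genes of other groups that passed the test did so upwards. Of 17 SOX genes of other groups in the table, 14 reached the level tested. At day 0, 6 of the 14 were higher in Hira-null, where 20.8% of all genes were, and 0 were lower in limma, at an unadjusted p under 0.05 and in a fit of the recovered fragments with voom alike. The median log2 fold change of the 14 was 0.39, against 0.01 over all genes. At day 15, 8 were higher, against 18.6% of all genes, and 2 lower, with a median of 0.49 against 0.01. Without the first Hira-null library of day 0 fewer than 6 passed upwards. Without either WT library of day 15 Sox10, 1 of the 2 lower, no longer reached the level tested, so this does not show a failed call. Neural genes moved with the day 15 rise: 11 of 12 were higher in the libraries labelled Hira-null (median log2 fold change 1.15), and 5 neural markers, Sox1 among them, summed to 133 to 136 FPKM in WT and 275 to 297 FPKM there. The part of neural cells in the higher SOX genes was not tested.

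Among the neural SOX genes, Sox1, a marker of early neural plate, stood at 1.72 ± 0.386 FPKM in WT and 4.77 ± 0.316 FPKM in Hira-null at day 0 and at 6.89 ± 0.565 and 11.6 ± 0.864 FPKM at day 15 (SD, n = 2 each). It was higher in Hira-null at day 0 (log2 1.09, limma, adjusted p 6.39e-04) and at day 15 (0.68, adjusted p 0.00849). Sox21, a group B2 gene of neural progenitors, had the highest of these fold changes at day 15 (1.38, adjusted p 3.52e-04), from 6.23 ± 0.129 to 17.8 ± 1.88 FPKM (SD, n = 2). Sox9, of cartilage, glia and valve mesenchyme, was 15.4 ± 0.886 FPKM in WT and 32.3 ± 0.844 FPKM in the libraries labelled Hira-null at day 15 (SD, n = 2), a log2 fold change of 1.02 (adjusted p 9.92e-04). The call of Sox1 at day 15 was lost without either WT library of that day.

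Sox10, a neural crest gene, and Sox15 were the members of other groups that were lower at day 15. Sox10 stood at 1.17 and 1.64 FPKM in WT and at 0.0827 and 0.116 FPKM in the libraries labelled Hira-null, a log2 fold change of -1.12 (limma, adjusted p 0.00203). Only the WT libraries of day 15 held FPKM 1 or more of Sox10, so it was tested only through the group where it was high. Sox15, the sole group G gene and a partner of POU5F1 in mESCs, stood at 16.5 and 10.1 FPKM in WT and 34.9 and 32.7 FPKM in Hira-null at day 0. At day 15 it stood at 3.54 and 3.599 FPKM in WT and at 1.28 and 0.646 FPKM in the libraries labelled Hira-null. It was therefore higher in Hira-null at day 0 (log2 1.32, adjusted p 0.00185) and lower at day 15 (-1.24, adjusted p 0.00334).

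**Figure D3:**
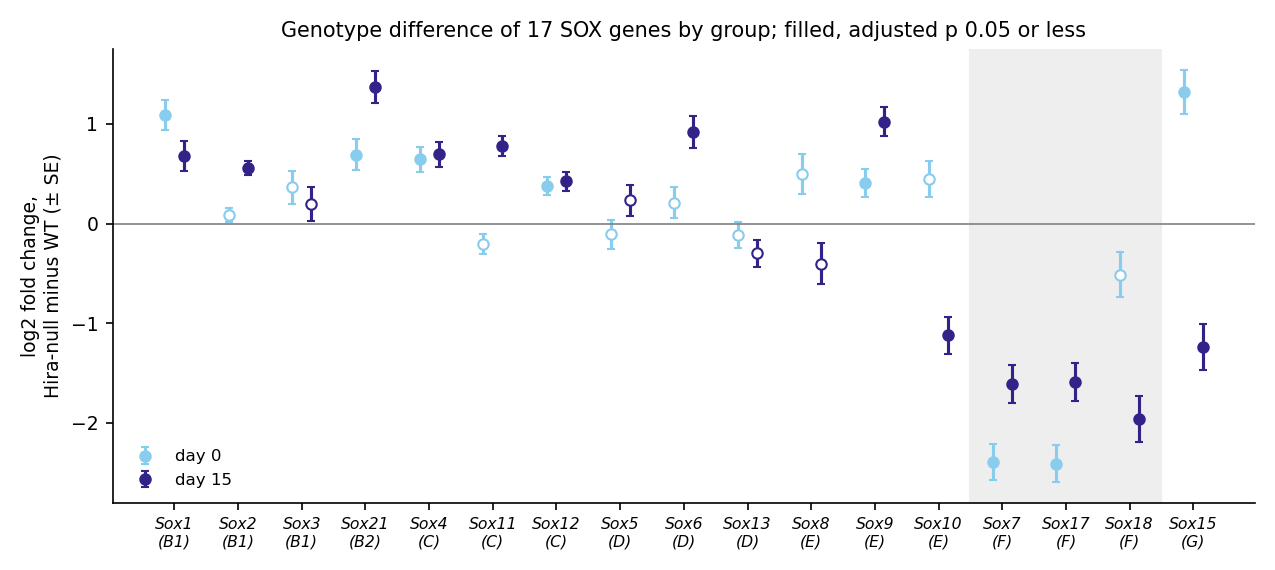
Log2 fold change of FPKM + 1 between Hira-null and WT (vertical axis, ± SE) for the 17 SOX genes tested, by SOX group along the horizontal axis, at day 0 (light) and day 15 (dark); filled points have an adjusted p of 0.05 or less. The group F genes, shaded, reach -2.41 at day 0 and -1.96 at day 15, below the lowest value of another group, -1.24 for Sox15 at day 15, except Sox18 at day 0.

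A list of 30 known targets and partners of the group F factors was compiled from general knowledge. Of these, 28 reached the level tested, Erg did not and Mmp7 was at 0 in every library. At day 0, 6 of the 28 were higher and 8 lower in Hira-null, against 20.8% and 19.4% of all genes, with a median log2 fold change of -0.15. At day 15, 6 were higher and 13 lower, against 18.6% and 18.8% of all genes, with a median of -0.52, where the median of all genes was 0.01 at each day. Without either WT library of day 15 fewer than 13 passed downwards, in part because Dll4 and Tal1 then no longer reached the level tested. Genes of the list that were lower at both days included Cdh5, Lama1, Lamb1 and Col4a1.

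Cdh5 encodes the cadherin of endothelial junctions and is bound by group F factors at its enhancer. It stood at 1.12 and 1.01 FPKM in WT and 0.256 and 0.114 FPKM in Hira-null at day 0. At day 15 it stood at 7.27 and 8.52 FPKM in WT and at 0.366 and 0.843 FPKM in the libraries labelled Hira-null. The groups were apart at both days, with log2 fold changes of -0.80 (limma, adjusted p 0.00891) and -2.48 (adjusted p 6.59e-05), and the call at day 0 was lost without the second Hira-null library (adjusted p 0.0664). Like Sox18, Cdh5 had its larger genotype difference at day 15 (difference -1.68, adjusted p 0.00222).

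Lama1 and Lamb1, laminin chains of the basement membrane of parietal endoderm, and Col4a1, a type IV collagen chain of the same membrane, were abundant in WT. Lama1 stood at 160 and 154 FPKM in WT and 13.7 and 14.1 FPKM in Hira-null at day 0, and at 64.8 and 60.5 against 15.4 and 16.0 FPKM at day 15. Its log2 fold change was -3.40 at day 0 (limma, adjusted p 6.95e-08) and -1.93 at day 15 (adjusted p 3.15e-06). Col4a1 was lower still in Hira-null at day 0, with 458 ± 6.12 FPKM in WT and 27.3 ± 0.786 FPKM in Hira-null (SD, n = 2), a log2 fold change of -4.02 (adjusted p 1.15e-06), and its difference at day 15 was -1.72 (adjusted p 7.35e-05). Lama1, Lamb1 and Col4a1 had the larger genotype difference at day 0 (differences of 1.48, 1.14 and 2.30, limma, adjusted p 8.68e-05, 2.60e-04 and 1.59e-04). Sox7 and Sox17 changed in the same direction, though for them this change was not firm.

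Foxa1 and Foxa2, the forkhead genes of the list, were not lower at both days. Foxa2 was lower in Hira-null at day 0 (log2 -1.44, limma, adjusted p 8.55e-05) and higher at day 15 (0.96, adjusted p 8.09e-04). Foxa1 was higher at both days (0.91 and 1.97, adjusted p 0.00255 and 9.03e-05). Foxa3, a visceral endoderm gene outside the list, was lower at day 15 (-1.36, adjusted p 0.00359). It did not pass at day 0 (-0.29, adjusted p 0.401).

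Of the vascular genes in the list, the Notch ligand Dll4 stood at 1.75 and 1.76 FPKM in WT at day 15 and at 0.455 and 0.122 FPKM in the libraries labelled Hira-null (log2 -1.11, limma, adjusted p 0.00180). The receptor Flt4, of lymphatic and growing vessels, was lower there too (-0.996, adjusted p 0.00158), as was Mef2c, a partner of SOX18, at 2.91 and 3.21 against 1.15 and 1.09 FPKM (-0.94, adjusted p 0.00213). At day 0 both Dll4 and Flt4 were higher in Hira-null (0.58 and 0.57, adjusted p 0.0276 and 0.0169), at calls that single libraries ended. The angiopoietin receptor Tek and the blood and vessel factors Tal1, Etv2 and Fli1 were lower at day 15, with log2 fold changes from -0.85 to -0.58, each call being lost without at least 1 library. Tal1, like Dll4, reached FPKM 1 only in the WT libraries of day 15, so both were tested only through the group where they were high.

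Other members of the list were not lower. Prox1, the lymphatic gene that SOX18 activates, was higher in the libraries labelled Hira-null at day 15, at 8.68 and 7.26 FPKM against 3.95 and 3.59 FPKM (log2 0.91, limma, adjusted p 0.00253). Prox1 is also expressed in heart muscle, liver and neural progenitors. Kdr, the VEGF receptor of vessel progenitors, stood at 6.74 and 6.83 FPKM in WT and at 7.23 and 6.92 FPKM in the libraries labelled Hira-null at day 15, a log2 difference of 0.05 (adjusted p 0.812). Notch1 was higher in Hira-null at day 0 (0.99, adjusted p 3.30e-04), with a log2 difference of 0.04 at day 15 (adjusted p 0.802). Among the partners, Ctnnb1 was higher at day 15 (0.41, adjusted p 7.82e-04) and Pou5f1 at both days (0.55 and 0.81, adjusted p 5.17e-04 and 1.13e-04), while Rbpj had -0.21 and 0.05 and passed at neither (adjusted p 0.223 and 0.807).

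Genes that mark the cell types in which group F factors are made were counted beside them. Of 33 endothelial genes tested, 5 were higher and 5 lower in Hira-null at day 0 (20.8% and 19.4% of all genes), with a median log2 fold change of 0.10. At day 15, 3 were higher and 20 lower (18.6% and 18.8% of all genes), with a median of -0.80. Without either WT library of day 15 fewer than 20 passed downwards, in part because Dll4, Tal1, Tie1 and Icam2 then no longer reached the level tested. Without either of these libraries or the second library labelled Hira-null, fewer than 3 passed upwards. The 5 higher at day 0 became 2 or 3 without the first or the second Hira-null library. Of the list, 14 genes are also among the targets and partners. The 8 endothelial markers summed to 40.7 to 41.2 FPKM in WT at day 15 and to 16.9 to 17.2 FPKM in the libraries labelled Hira-null, with 7 and 4 of the 8 at FPKM 1 or more in both libraries. At day 0 the sums were 64.3 to 66.0 FPKM in WT and 68.8 to 72.5 FPKM in Hira-null, carried by Pecam1, which mESCs also express, at 56.4 and 63.4 FPKM. Blood genes were lower at day 15 as well, 9 of 10 (median log2 fold change -1.21), and 5 blood markers summed to 35.2 to 38.4 FPKM in WT and 3.19 to 3.76 FPKM in the libraries labelled Hira-null. The part of these cells in the lower Sox18 was not tested.

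Of 15 parietal endoderm genes, 12 were lower and 1 higher in Hira-null at day 0 (19.4% and 20.8% of all genes), with a median log2 fold change of -1.58. At day 15, 10 were lower and 1 higher (18.8% and 18.6% of all genes), with a median of -0.74. The 1 higher gene at day 0, Nid1, lost its call without any of 3 libraries. The 6 markers of this cell type summed to 1279 to 1318 FPKM in WT and 245 to 257 FPKM in Hira-null at day 0, and to 1285 to 1344 and 663 to 742 FPKM at day 15. These sums were thus further apart at day 0, as were Sox7 and Sox17, though for these genes that change was not firm. The largest parts in WT came from Sparc (468 FPKM at day 0, 577 FPKM at day 15) and Col4a1 (458 and 526 FPKM). Thbd alone of the 6 was further apart at day 15 (log2 -0.89, limma, adjusted p 0.00305) than at day 0 (-0.37, adjusted p 0.0934). Thbd reached FPKM 1 only in the WT libraries of day 15, so it was tested only through the group where it was high.

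Of 22 visceral endoderm genes, 4 were higher and 10 lower at day 0 (20.8% and 19.4% of all genes) and 3 higher and 17 lower at day 15 (18.6% and 18.8%), with medians of -0.30 and -1.70. The 6 markers summed to 20.4 to 21.3 FPKM in WT and 8.12 to 10.99 FPKM in Hira-null at day 0. The lower sum there came mostly from Cubn (14.9 and 0.370 FPKM). Afp (log2 1.38, limma, adjusted p 0.00508) and Apoa1 (1.92, adjusted p 2.78e-04) were instead higher in Hira-null. Ttr, Amn and Hnf4a did not pass at that day. At day 15 the sums were 101 to 104 FPKM in WT and 3.62 to 4.64 FPKM in the libraries labelled Hira-null. Of the markers, 6 and 1 reached FPKM 1 in both libraries there. Gata4 and Gata6, which drive extraembryonic endoderm and also act in heart, were lower at both days, Gata6 with log2 fold changes of -2.15 and -2.65 (limma, adjusted p 4.22e-05 and 2.82e-05). Of 15 genes of definitive endoderm and mesendoderm, 5 were higher and 1 lower at day 0 (20.8% and 19.4% of all genes) and 6 higher and 5 lower at day 15 (18.6% and 18.8%), with medians of 0.20 and -0.38. Without either WT library of day 15 fewer than 5 passed downwards, in part because Mixl1 then no longer reached the level tested. Without the second Hira-null library of day 0 fewer than 5 passed upwards. The 5 markers of definitive endoderm summed to 37.4 to 39.1 FPKM in WT and 59.5 to 61.5 FPKM in the libraries labelled Hira-null at day 15, while Sox17 was lower there. The higher sum came from Cxcr4 (14.0 and 30.2 FPKM) and Foxa2 (11.9 and 24.0 FPKM), whereas Gsc (log2 -1.39) and Hhex (-0.83) were lower and Cer1 (-0.38) did not pass. The part of any of these cell types in the group F differences was not tested.

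**Figure D4:**
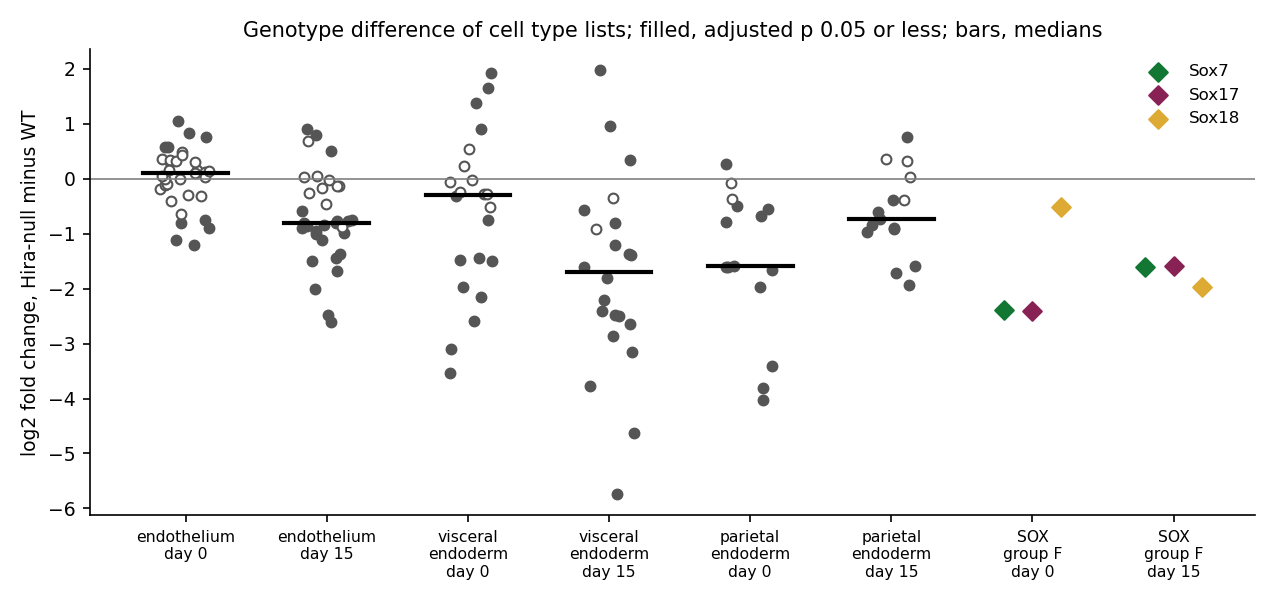
Log2 fold change of FPKM + 1 between Hira-null and WT (vertical axis) for each tested gene of the endothelial, visceral endoderm and parietal endoderm lists and for Sox7, Sox17 and Sox18 (diamonds), at day 0 and day 15; filled circles have an adjusted p of 0.05 or less and bars are medians. The endothelial median is 0.10 at day 0 and -0.80 at day 15, and the parietal endoderm median -1.58 and -0.74.

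The genes whose log2(FPKM + 1) followed each member most closely over the 8 libraries differed between the members. All correlations below are Pearson's r over these 8 libraries, which share their genotype and day structure, and are given as a description. For Sox7 the 5 highest were Cubn (r = 0.995), Chmp3 (0.989), Zfp652 (0.986), Lama1 (0.985) and Slco2a1 (0.985). Cubn encodes cubilin, an uptake receptor of visceral endoderm, and stood at 13.9 and 15.9 FPKM in WT and 0.398 and 0.342 FPKM in Hira-null at day 0. At day 15 it stood at 8.39 and 7.49 FPKM in WT and at 0.991 and 0.872 FPKM in the libraries labelled Hira-null, the same order of groups as Sox7.

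For Sox17 the closest were 1200014J11Rik, Ankrd10, Otud4 and Ankrd11, each at an r of 0.986, and Appbp2 (0.983), genes that are measured at FPKM 8.20 or more in every library. Their genotype differences were smaller, with log2 fold changes from -1.01 to -0.75 at day 0. For Sox18 they were Car4 (r = 0.989), Sh3d21 (0.974), Lrrc15 (0.972), Smtn (0.961) and Cep131 (0.957). Car4, a membrane-bound carbonic anhydrase, stood at 43.6 and 42.7 FPKM in WT at day 15 and at 11.6 and 11.9 FPKM in the libraries labelled Hira-null (log2 -1.80, limma, adjusted p 2.79e-05). Smtn encodes smoothelin of contractile smooth muscle. Between the members, r was 0.920 for Sox7 with Sox17, 0.703 for Sox7 with Sox18 and 0.707 for Sox17 with Sox18.

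The nearest annotated genes that were also measured did not follow the members throughout. Pinx1, 23815 bases from Sox7, was lower in Hira-null at day 0, at 9.27 and 10.4 against 21.3 and 22.1 FPKM (log2 -1.07, limma, adjusted p 3.95e-04). At day 15 it stood at 7.78 and 10.04 FPKM in WT and at 12.1 and 10.9 FPKM in the libraries labelled Hira-null (0.34, adjusted p 0.0756), unlike Sox7, which was lower. The neighbour on the other side, 4930578I06Rik, was at 0 in every library. Near Sox17, Rp1 was at most 0.196 FPKM in any library and Mrpl15 had log2 differences of -0.12 and -0.21 that did not pass (adjusted p 0.404 and 0.144). Near Sox18, Prpf6 had -0.20 and -0.01 (adjusted p 0.114 and 0.948), and Tcea2, 8670 bases away, was higher in Hira-null at day 0 (0.59, adjusted p 0.0421) and had -0.48 at day 15 (adjusted p 0.0999).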

How the data were processed

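The authors made stranded messenger RNA libraries, aligned paired reads to mm9 with Bowtie 0.12.2 and deposited FPKM values of 24421 genes in 8 libraries. The counting tool and its strand setting are not given in the sources used. The authors' own comparisons (DESeq2 1.6.3), holding normalized means, log2 fold changes, standard errors, test scores and p-values, were not used.

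FPKM values are whole multiples of a step for each gene and library (99.998% within 0.001 of a fragment), which gave fragment counts for 18142 genes. Totals are lower bounds, since 992 genes above 0 in only 1 library were left out. FPKM scales differ from these totals by factors of 0.959 to 1.05. Intervals (95%) and floors (3 fragments) cover counting error only.

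Tests used log2 of FPKM plus a pseudocount of 1, on the 14337 genes that reached FPKM 1 in 2 or more libraries. The model, limma 3.58.1 under R 4.3.3, had a mean for each of the 4 groups, day weights and a variance trend, and p-values were adjusted by Benjamini-Hochberg at 0.05. They measure the spread between biological samples of 1 line each. Alternatives changed the pseudocount, filter, weights, scaling, test and libraries. When a library was left out, the filter was applied anew to those that remained. Named genes are the 3 members, Hira, the SOX family, the 5 genes most correlated with each member and the nearest measured genes. Further named genes come from lists of targets and partners, endothelium, endoderm, heart muscle, blood and neural genes. These lists were counted, with examples chosen after their values were seen. Members and lists were chosen with earlier results of these data known. The fit was tested on simulated data. One gene of the lists is not reported here.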

Additional observations from a re-analysis of the deposited data

Results flagged for a closer look

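The genotype difference of each group F gene differed between the days by a test of the difference itself (limma, log2(FPKM + 1), day 15 minus day 0). The value was 0.78 for Sox7 (adjusted p 0.0457), 0.82 for Sox17 (adjusted p 0.0413) and -1.45 for Sox18 (adjusted p 0.00908). Both Hira-null libraries were below both WT libraries at each day for each of these genes. How many of all genes show this order is not given here. The call was lost under 6 of 9 alternatives and without 7 of 8 single libraries for Sox7, under 2 of 9 and without 6 of 8 for Sox17, and under 0 of 9 and without 1 of 8 for Sox18, so for Sox7 and Sox17 it is not firm.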

How the results depend on the processing

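The genotype differences of Sox7 and Sox17 at both days and of Sox18 at day 15 kept their direction and their call under all 10 alternatives and without each of the 4 libraries in turn. The log2 values under the alternatives ran from -4.74 to -2.26 and from -3.05 to -1.61 for Sox7 at day 0 and day 15, from -6.35 to -2.26 and from -2.30 to -1.59 for Sox17, and from -4.24 to -1.96 for Sox18 at day 15. The comparisons across days and between the genotype effects were less firm, and the causes were not tested. With each library rescaled to the same sum, the median of all genes tested moved from 3.16 to 3.23 at day 0 and 3.40 to 3.43 at day 15 to 2.96 to 3.01 and 3.63 to 3.69. The day difference in WT then was -0.23 for Sox7 (adjusted p 0.298) and 0.53 for Sox17 (now past the test, 0.0329), that of Sox18 in Hira-null -0.42 (0.116), and the differences between the genotype effects 0.53 for Sox7 (0.148) and 0.59 for Sox17 (0.121). Genes lower at day 15 then numbered 2836 in place of 4786 in WT and 3242 in place of 5215 in Hira-null. Centred on the median, the uncalled day differences of Sox7 in Hira-null (-0.017, adjusted p 0.937) and of Sox17 in WT (-0.10, 0.652) changed sign. With a pseudocount of 0.1, calls were lost for Sox7 (-0.73) and Sox18 (1.23) across days in WT and for Sox7 between the genotype effects (1.41), the last also at 0.5 (0.97). Without the filter the calls were lost for Sox7 (0.78) and Sox17 (0.82) between the genotype effects and for Sox18 in Hira-null (-0.57), and with voom on the fragments for Sox7 (1.69) and Sox18 (-1.91) in the same comparisons.

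Leaving out 1 library at a time, the day difference in WT ran from -0.75 to -0.46 for Sox7 and from 0.62 to 1.15 for Sox18, that of Sox18 in Hira-null from -0.74 to -0.39, and the genotype difference of Sox18 at day 0 from -0.77 to -0.25. The differences between the genotype effects ran from 0.64 to 0.93 for Sox7, 0.64 to 1.01 for Sox17 and -1.71 to -1.19 for Sox18. Without the first or second WT library of day 15, genes higher at that day numbered 1348 or 1285 in place of 2673, and lower 1193 or 1304 in place of 2690. Without the first or second Hira-null library of day 0, genes higher at day 0 numbered 1806 or 1891 in place of 2980, and without the first 1849 were lower in place of 2785. Endothelial genes higher at day 0 numbered 5, but 8 with voom, 3 with the 4 libraries of day 0 alone and 2 or 3 without a Hira-null library.

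Same-numbered libraries did not deviate together (correlations of the replicate differences from -0.0967 to 0.0455). No pairing by number was thus seen, though such correlations cannot exclude that same-numbered samples were prepared together. With a replicate block the difference between the genotype effects of Sox7 was 0.78 (adjusted p 0.0656), no longer past the test, and no other call of the 3 genes changed. Depth limits the low groups, with 0 and 5 fragments of Sox17 in Hira-null at day 0 and 1 and 5 of Sox18 in the libraries labelled Hira-null at day 15.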
